A study of Arabidopsis thaliana with 6 samples.

Results

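*PUB22*, *PUB23*, *PUB24* and *PUB25* are close paralogs of *Arabidopsis* that encode ubiquitin ligases of the plant U-box family. Each of the 4 genes was represented by 1 probe set on the array that the probe annotation pairs with that gene and with no other, so 4 of the 22746 probe sets, and 4 of the 13356 genes with a probe set of their own, were followed here. Their loci are AT3G52450 for *PUB22*, AT2G35930 for *PUB23*, AT3G11840 for *PUB24* and AT3G19380 for *PUB25*. No probe set that pairs with several genes includes any of them. Whole seedlings of the Col-0 ecotype, 14 days old and grown in liquid Murashige and Skoog medium, had received either the purified chitin tetramer (4mer) at 100 µg/mL or an equal amount of water (mock). They were harvested after 30 min, and RNA from 3 independent biological replicates per group was hybridized to 6 Affymetrix ATH1 arrays. All plants were wild type, and each sample was a pool of whole seedlings from shaken flasks, so a difference in the number of cells of a type cannot be told apart from a difference in RNA per cell. Levels are given as multiples of the median signal of the array.

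A ubiquitin ligase brings a ubiquitin-loaded enzyme to a chosen protein, which is often then degraded by the proteasome. In the plant U-box ligases the U-box binds the loaded enzyme, and armadillo repeats in the rest of the protein commonly bind the target. *PUB22*, *PUB23* and *PUB24* are known as joint brakes on the immune response that follows recognition of microbial patterns such as flagellin and chitin, and their transcripts are known to respond to such patterns. *PUB25* and its closest relative *PUB26* are known to mark the immune kinase BIK1 for degradation and to act in cold signaling. The comparison asks how the transcripts of these 4 genes stood shortly after a short chitin oligomer was added.

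The signal of mock replicate 1 stood apart from the other arrays. Over the 14505 probe sets with a mean level of at least 0.5 times the array median, its log2 levels correlated with those of each other array at 0.952 to 0.960, while all other pairs of arrays correlated at 0.984 to 0.993. The values of the 4 ligase genes and of their ratios are therefore given with and without it, and those of other genes where it moves them. Over all probe sets, 15 passed the test as higher and 8 as lower with the 4mer (limma, adjusted p under 0.05). Without mock replicate 1 these counts were 182 and 156, and without any other array at most 1 probe set passed. The labelled tissue was checked with markers, of which 1 of 5 shoot genes, 3 of 7 root genes and 2 of 4 genes of organs that a seedling lacks were named among the probe sets. The shoot gene *RCA* averaged 54.5 times the array median in mock and 52.8 with the 4mer. Of the root genes, *PYK10* averaged 58.8 in mock and 54.5 with the 4mer, and the root hair gene *EXPA7* 1.21 and 1.30. The log2 fold changes of *RCA*, *PYK10* and *EXPA7* were -0.03, -0.08 and 0.18. Without mock replicate 1 they turned to 0.14, 0.12 and -0.19. The root hair gene *EXPA18* averaged 1.84 in mock and 1.36 with the 4mer, with groups that did not overlap and a log2 fold change of -0.44 (-0.49 without mock replicate 1) that did not pass the test (adjusted p = 0.234 from limma). The pollen gene *LAT52* averaged 0.0512 and 0.101, and the pollen gene *VEX1* 0.201 and 0.226. *LAT52* was at 0.0412, 0.0784 and 0.183 in 4mer replicates 1, 2 and 3. Its log2 fold change was 0.72, and 0.16 without 4mer replicate 3. The part of root hair transcripts in the values of the ligase genes was not tested.

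All 4 genes had a higher mean in the 4mer seedlings than in the mock seedlings, as did 47.7% of all probe sets, and none passed the test over all probe sets. On the log2 scale of the fit, *PUB25* was 1.63-fold and *PUB23* 1.60-fold higher, while *PUB22* was 1.29-fold and *PUB24* 1.19-fold higher. In 3 of the 4 genes, *PUB23*, *PUB24* and *PUB25*, every 4mer array lay above every mock array, a pattern found in 7.86% of all probe sets. The median log2 fold change of the 4 genes was 0.52, against -0.01 over all probe sets. With an adjusted p under 0.05 as the threshold, 0 of the 4 genes were called in limma, where 0.0659% of all probe sets were called higher. At an unadjusted p under 0.05 the same fit held 2 of the 4 genes as higher, against 4.54% of all probe sets. The 4 genes were chosen with earlier results of these data known, so their counts are not independent of that choice. The SAM statistic with all 20 label permutations called 4 of all probe sets, 0 of them higher, and so none of the 4 genes. With 3 arrays in each group, the smallest two-sided p that an exact permutation test of a single gene can reach is 0.1.

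**Figure D1:**
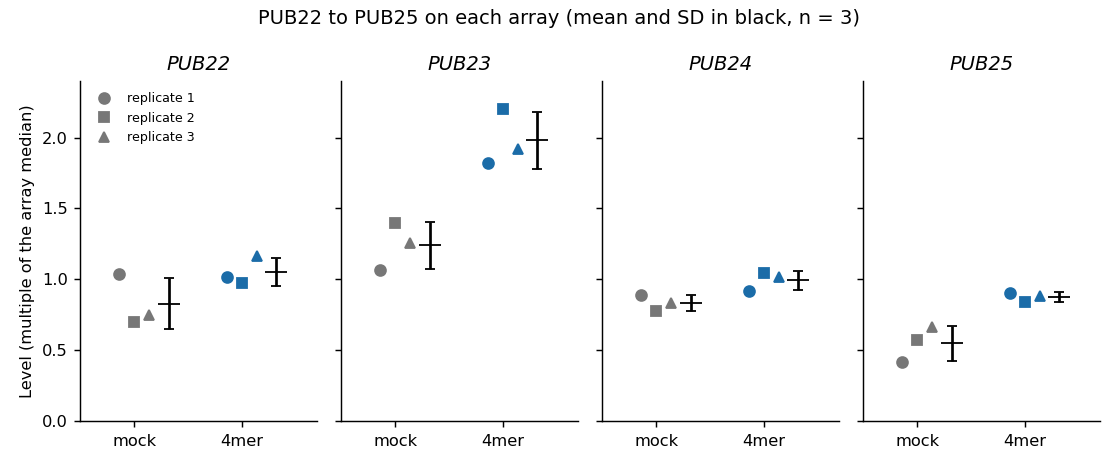
Level of each gene on each of the 6 arrays, as a multiple of the array median (vertical axis, starting at 0), with circles, squares and triangles for replicates 1, 2 and 3 of mock (grey) and 4mer (blue). Black marks give the mean and SD of each group (n = 3). The groups are separate in *PUB23*, *PUB24* and *PUB25*, and overlap in *PUB22* through mock replicate 1 at 1.04.

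*PUB23* had the smallest p of the 4 genes. Its level was 1.06, 1.40 and 1.26 in mock replicates 1, 2 and 3, and 1.82, 2.20 and 1.92 in 4mer replicates 1, 2 and 3. The groups did not overlap, and the lowest 4mer array was 0.423 above the highest mock array. The means were 1.24 ± 0.17 (SD, n = 3) in mock and 1.98 ± 0.20 (SD, n = 3) in 4mer seedlings. The log2 fold change was 0.68, with a standard error of 0.13 and a 95% interval from 0.37 to 0.99, and the adjusted p of limma was 0.136. In order of p it ranked 149th among all probe sets, and 4.77% of them had a larger log2 fold change. Taken as a rank within each array, which no scaling between arrays can alter, *PUB23* lay between the 51.4th and the 57.6th percentile of all probe sets in mock and between the 64.1st and the 69.3rd percentile with the 4mer.

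*PUB22* is the nearest to *PUB23* in known function, since both ligases share targets and act together in immune and drought responses. Its level was 1.04, 0.702 and 0.746 in mock replicates 1, 2 and 3, and 1.02, 0.977 and 1.16 in the 4mer replicates. Mock replicate 1 lay above 4mer replicates 1 and 2, so the groups overlapped, while mock replicates 2 and 3 lay below all 4mer arrays. The means were 0.828 ± 0.181 (SD, n = 3) in mock and 1.05 ± 0.10 (SD, n = 3) in 4mer seedlings, and limma gave a log2 fold change of 0.37 with an adjusted p of 0.476 (standard error 0.18, 95% interval from -0.04 to 0.77). Of the 9 comparisons of a 4mer array with a mock array, 7 were higher with the 4mer, and the remaining ones both involved mock replicate 1. Without that array the mock mean was 0.724, the log2 fold change was 0.54 (95% interval from 0.24 to 0.84) and the adjusted p of limma was 0.0928.

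*PUB24*, which acts with *PUB22* and *PUB23* as a brake on immune signaling, had the smallest difference and the smallest spread in mock. Its level was 0.888, 0.774 and 0.833 in mock replicates 1, 2 and 3, and 0.919, 1.05 and 1.02 in the 4mer replicates. The groups did not overlap, with a margin of 0.0312 between the nearest arrays. The means were 0.832 ± 0.057 (SD, n = 3) and 0.994 ± 0.066 (SD, n = 3). The log2 fold change of 0.26 had a standard error of 0.13 and a 95% interval from -0.04 to 0.56 (adjusted p = 0.496 from limma). Among all probe sets, 17.7% had a larger log2 fold change.

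*PUB25*, the ligase of BIK1, had the largest log2 fold change of the 4 genes. Its level was 0.415, 0.569 and 0.660 in mock replicates 1, 2 and 3. In the 4mer replicates it was 0.905, 0.838 and 0.883. The 4mer arrays were close together and all above the mock arrays, which were spread more widely, with SDs of log2 levels of 0.06 and 0.34. The means were 0.548 ± 0.124 (SD, n = 3) in mock and 0.875 ± 0.034 (SD, n = 3) with the 4mer, and limma gave a log2 fold change of 0.70 with an adjusted p of 0.266 (standard error 0.20, 95% interval from 0.25 to 1.15). *PUB25* and *PUB23* were the 2 genes with an unadjusted p under 0.05 and with a difference of at least 1.5-fold, criteria that 1.66% of all probe sets met together. In percentile of the array *PUB25* lay between 31.4 and 41.8 in mock and between 46.1 and 47.8 with the 4mer. A larger log2 fold change than that of *PUB25* was found in 4.57% of all probe sets.

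Mock replicate 1 moved the 4 genes in different directions. It was the highest mock array for *PUB22* and *PUB24* and the lowest for *PUB23* and *PUB25*. Without it, every 4mer array was above both remaining mock arrays in all 4 genes, a pattern found in 16.5% of all probe sets on those 5 arrays. The log2 fold changes then lay closer together for *PUB22*, *PUB23* and *PUB25*, at 0.54, 0.57 and 0.51, while *PUB24* was at 0.31. Their adjusted p-values from limma were 0.0928, 0.0507, 0.119 and 0.254 for *PUB22*, *PUB23*, *PUB25* and *PUB24*. None passed, where 0.8% of all probe sets were called higher on these arrays. At an unadjusted p under 0.05 in the same fit all 4 genes were higher, against 7.73% of all probe sets.

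**Figure D2:**
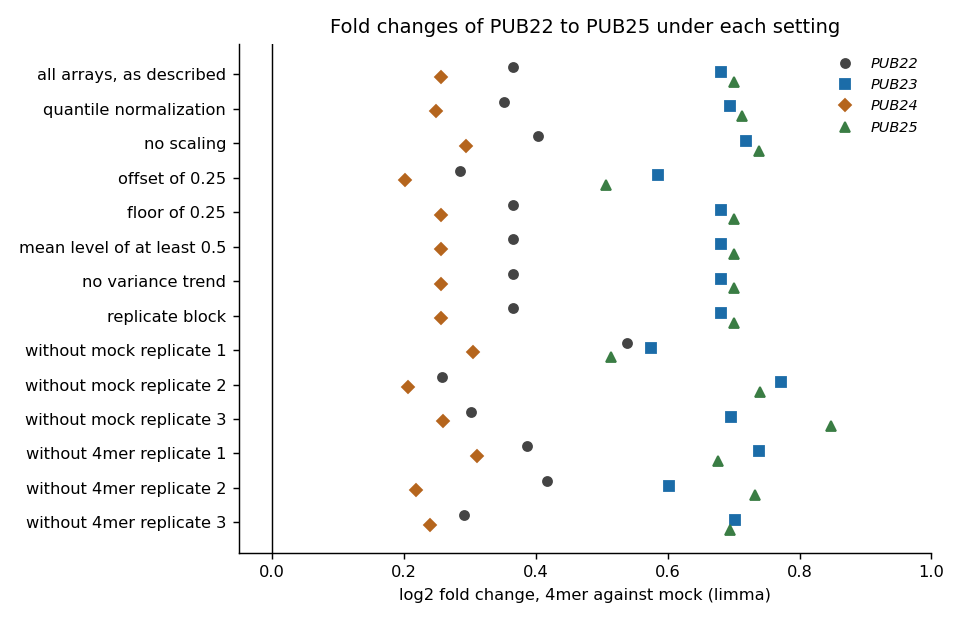
Log2 fold change of the 4mer against mock for *PUB22* (circles), *PUB23* (squares), *PUB24* (diamonds) and *PUB25* (triangles) from limma (horizontal axis), with all arrays in the top row and 1 alternative setting in each row below it. All points lie above 0, from 0.20 for *PUB24* with an offset of 0.25 to 0.85 for *PUB25* without mock replicate 3. The rows with a floor of 0.25, a filter on mean level, no variance trend or a replicate block repeat the top row by design.

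The next question was whether the paralogs differed from each other in their response. Signals of different probe sets are not comparable as transcript levels, because each set binds its transcript with its own strength, so the ratio of each pair was taken within each array and only its change from mock to 4mer was read. Of the 6 pairs, the ratio of *PUB23* to *PUB24* and that of *PUB24* to *PUB25* did not overlap between the groups. The log2 ratio of *PUB23* to *PUB24* was 0.26, 0.85 and 0.59 in mock replicates 1, 2 and 3, and 0.99, 1.08 and 0.92 in the 4mer replicates. All 4mer ratios were thus higher, with a difference of 0.42 (95% interval from -0.07 to 0.92). The two-sided exact permutation test gave p = 0.1, the smallest it can give, and 0.3 after adjustment over the 6 pairs. The log2 ratio of *PUB24* to *PUB25* was 1.097, 0.444 and 0.335 in the mock replicates and 0.0222, 0.319 and 0.203 in the 4mer replicates. The difference was -0.44 (95% interval from -1.15 to 0.26, exact permutation p = 0.1, adjusted p = 0.3), and the nearest mock and 4mer arrays were almost level.

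*PUB23* and *PUB25* had nearly the same difference between the groups. Their log2 ratio averaged 1.19 ± 0.23 (SD, n = 3) in mock and 1.17 ± 0.20 (SD, n = 3) in 4mer seedlings, a difference of -0.02 with a 95% interval from -0.51 to 0.47, which leaves room for unequal responses of up to that size. The other 3 pairs, all with *PUB22*, overlapped between the groups. For *PUB22* against *PUB23* the difference in log2 fold change was -0.32 (95% interval from -1.20 to 0.57), for *PUB22* against *PUB25* it was -0.34 (from -1.36 to 0.69), and for *PUB22* against *PUB24* it was 0.11 (from -0.32 to 0.54). Mock replicate 1 had the highest ratio of *PUB22* to each of the other 3 genes among the mock arrays. Without it, the difference was -0.04 for *PUB22* against *PUB23* (95% interval from -0.66 to 0.59) and 0.02 against *PUB25* (from -0.30 to 0.34). For *PUB22* against *PUB24* it was then 0.23 (from -0.14 to 0.61), and the groups no longer overlapped. The remaining differences without mock replicate 1 were 0.27 for *PUB23* against *PUB24* (from -0.09 to 0.63) and 0.06 for *PUB23* against *PUB25* (from -0.58 to 0.70). For *PUB24* against *PUB25* the difference was -0.21 (from -0.59 to 0.17).

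**Figure D3:**
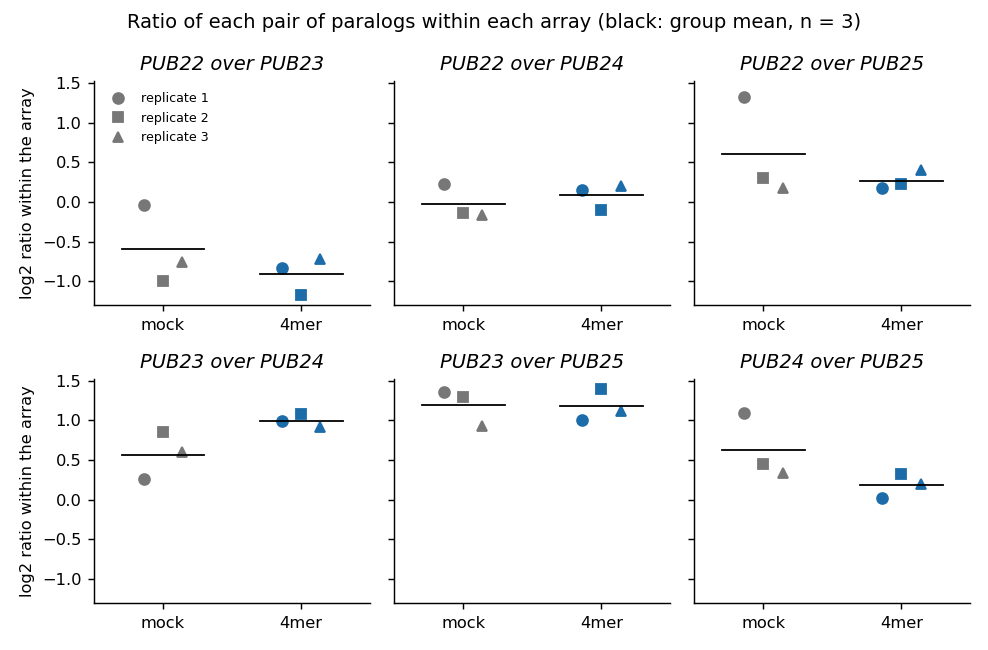
Log2 ratio of the signals of each pair of paralogs within each array (vertical axis), with circles, squares and triangles for replicates 1, 2 and 3 of mock (grey) and 4mer (blue) and a black line at the group mean (n = 3). The groups are separate for *PUB23* over *PUB24* and for *PUB24* over *PUB25*. In these ratios mock replicate 1 is the mock array farthest from the 4mer arrays. It also lies away from the other mock arrays in the ratios that involve *PUB22*.

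Of 22 other U-box genes in the gene table, 5 were named among the probe sets, and none of them passed the test. Their median log2 fold change was 0.27, with 3 higher and 2 lower. The median was 0.01 without mock replicate 1, and -0.08 without mock replicate 2, where 2 of the 5 were higher. No gene of the 5 had an unadjusted p under 0.05, against 4.54% of all probe sets as higher and 6.86% as lower. *PUB26*, the closest relative of *PUB25*, was at 0.275, 0.269 and 0.458 in mock replicates 1, 2 and 3 and at 0.478, 0.545 and 0.439 in the 4mer replicates. Its groups overlapped through mock replicate 3, and limma gave a log2 fold change of 0.59 with an adjusted p of 0.454 (standard error 0.26), or 0.47 without mock replicate 1. *PUB19*, a ligase known from abscisic acid and drought responses, showed a difference of 0.27 on the log2 scale (adjusted p = 0.699). Mock replicate 1 was its lowest array, at 0.348, and without it the difference was 0.01. *PUB15*, whose levels lay between 0.0490 and 0.220, had a difference of 0.48 (adjusted p = 0.795) that rested on mock replicate 2, its lowest array, and was -0.21 without it. *PUB43* and *PUB49* had log2 fold changes of -0.22 and -0.06 (adjusted p = 0.569 and 0.883), and without mock replicate 1 they had -0.24 and 0.01. In 0 of these 5 genes were the groups separate, where 7.86% of all probe sets were separate with the 4mer higher and 12.5% with it lower.

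Of 39 listed genes around the 4 ligases, which are their substrates, their partners and the pathway that senses microbial patterns, 5 were named among the probe sets. Their median log2 fold change was 0.14 (0.43 without mock replicate 3), and all 5 values were above 0, as were 47.7% over all probe sets. Those of *RPN12a* and *EFR* turned when single arrays were left out. None passed the test in limma, and 2 were higher at an unadjusted p under 0.05, against 4.54% of all probe sets. The list was chosen with earlier results of these data known, so its counts are not independent of that choice. *BIK1*, the receptor-associated kinase that PUB25 marks for degradation, was at 4.34, 3.98 and 4.22 in the mock replicates and at 4.30, 5.30 and 4.28 in the 4mer replicates. All arrays other than 4mer replicate 2 lay between 3.98 and 4.34, and the log2 fold change was 0.14 (adjusted p = 0.635 from limma), or 0.04 without 4mer replicate 2. *RPN12a*, a proteasome subunit known as a target of PUB22 and PUB23, averaged 10.3 ± 1.0 (SD, n = 3) in mock and 10.4 ± 0.2 (SD, n = 3) with the 4mer. Its log2 fold change was 0.02, with a 95% interval from -0.19 to 0.23, and -0.06 without mock replicate 1.

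Among the genes of the sensing pathway, *WRKY22* and *WRKY53*, transcription factors of early immune signaling, had differences of a size near that of *PUB23*. *WRKY22* was at 0.912, 0.920 and 0.898 in the mock replicates and at 1.48, 1.46 and 1.16 in the 4mer replicates, which limma gave as a log2 fold change of 0.58 with an adjusted p of 0.176 (standard error 0.13). For *WRKY53* the log2 fold change was 0.67 with an adjusted p of 0.239 (standard error 0.18). In neither gene did the groups overlap, as in 7.86% of all probe sets with the 4mer higher. Without mock replicate 1 their log2 fold changes were 0.58 and 0.78. *EFR*, a receptor of a bacterial pattern, had one of 0.08 with a 95% interval from -0.71 to 0.88, and its levels lay between 0.223 and 0.549 in all arrays, with a ratio of the group means of 0.997. Its log2 fold change was at -0.22 without mock replicate 2 and at -0.05 without 4mer replicate 1.

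**Figure D4:**
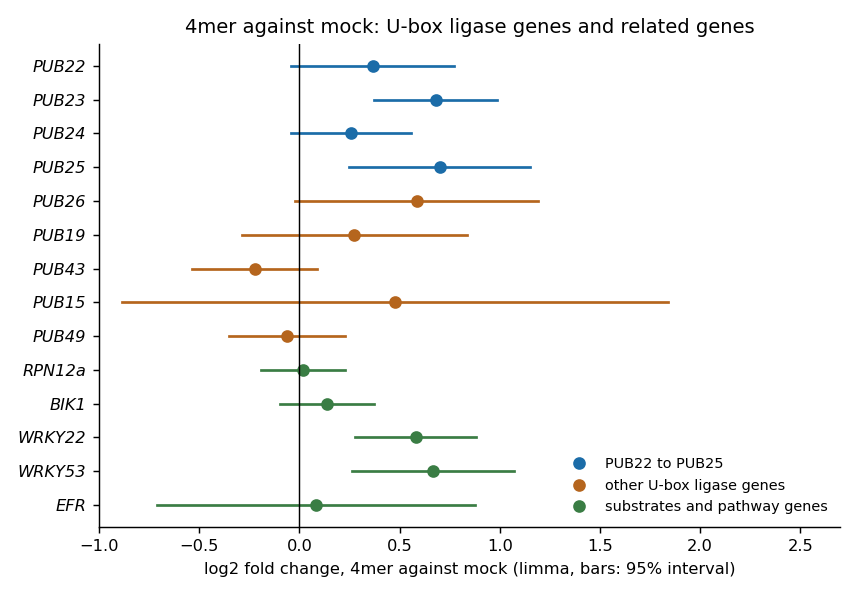
Log2 fold change of the 4mer against mock from limma (horizontal axis), with bars for the unadjusted 95% interval. Blue marks *PUB22* to *PUB25*. Brown marks the 5 other U-box genes named among the probe sets, and green the 5 genes of substrates and pathway named there. The intervals of *PUB23*, *PUB25*, *WRKY22* and *WRKY53* lie above 0, and none of the genes passed after adjustment over all probe sets.

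For each of the 4 genes, the 3 probe sets most like it over the 6 arrays were taken from the 7841 that name 1 gene and have a mean level of at least 0.5. The measure was Pearson's r of log2 levels, and with 6 arrays high values are common. Between 71 and 251 of these probe sets reached an r of 0.9 with a given ligase gene. Nearest to *PUB23* were AT4G33420, *MMP*, which encodes a matrix metalloproteinase, and AT5G02230, with r from 0.992 to 0.993. Nearest to *PUB25* were AT1G09460, AT2G40270 and AT1G14130, with r from 0.989 to 0.994.

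The pattern of *PUB22*, with a high mock replicate 1, was shared by the expansin-like gene *EXLA1*, the methionine sulfoxide reductase gene *MSRB9* and AT1G52180, with r from 0.986 to 0.991. *EXLA1* was at 8.27, 6.09 and 6.15 in the mock replicates and at 8.20, 7.96 and 8.72 in the 4mer replicates. As for *PUB22*, its mock replicate 1 lay among the 4mer arrays and its other mock arrays lay below them. Nearest to *PUB24* were AT3G05670, AT3G52800 and *PIR121*, a gene of actin regulation, with r from 0.981 to 0.988. The 3 probe sets named for each of the 4 genes were 12 different ones. Since they were chosen on the same 6 arrays, how they differ between the groups is not independent of that choice.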

How the data were processed

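The deposited values are linear intensities that the authors obtained from the scanned ATH1 arrays with MicroArray Suite 5.0, a single value for each probe set, of which 1 to 4 per array are 0. Means trimmed by 2% at each end lie between 496.8 and 497.4, so the arrays share a scaling, whose target is not given in the sources used here. Detection calls were not used here, so whether a dim probe set is above background is unknown. The number of arrays limits the precision. No 2 arrays hold identical values.

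Following the methods, signals were floored at 0.01 and divided by the array median, and then taken to log2. The 4mer arrays were set against the mock arrays with limma 3.58.1 in R 4.3.3 (lmFit, eBayes with a variance trend) over all 22746 probe sets with Benjamini-Hochberg adjustment. The methods name SAM without a threshold, so it served as an alternative, at a false discovery rate of 0.05. Pairs of paralogs were tested with scipy 1.17.1 (two-sided exact permutation), with 95% intervals from the pooled variance of the ratios. Probe sets were named through the platform annotation and the TAIR10.1 gene table: 13513 pair with 1 gene, 503 with several, and 8730 are not listed. Of a gene's several probe sets the brightest was used. The 4 genes and the lists were chosen with earlier results of these data known. Named from each list are the 4 genes with the smallest p and, here, the 1 remaining gene. Promoter and protein sequences were not used here. Alternatives were other scalings, offsets, filters and variance models, a replicate block, SAM, the methods' ratio to the mock median, and leaving out each array. Scripts were tested on simulated data. Figures were drawn with matplotlib 3.10.9.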

Additional observations from a re-analysis of the deposited data

How the results depend on the processing

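The log2 fold changes of *PUB22* to *PUB25* were above 0 in all 56 values over 14 alternatives, and none of the 52 with a test passed. They ran from 0.26 to 0.54 for *PUB22*, 0.57 to 0.77 for *PUB23*, 0.20 to 0.31 for *PUB24* and 0.51 to 0.85 for *PUB25*, with adjusted p-values from 0.0928 to 0.771, 0.0507 to 0.408, 0.254 to 0.763 and 0.119 to 0.650. Many of these signs were fixed in advance. The fold changes cannot be altered by the floor of 0.25, the filter on mean level, the omitted variance trend or the replicate block. In *PUB23*, *PUB24* and *PUB25*, whose groups were separate, leaving out an array cannot turn the sign. The count of all probe sets past the threshold, 23, depended on the setting. It was 10 with a floor of 0.25, 59 among probe sets with a mean level of at least 0.5, 2 without a variance trend, 4 with SAM and 0 with the replicate number as a block. Leaving out 1 array gave 0 to 338, with 338 without mock replicate 1 and at most 1 without any other array.

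The labels number the replicates but do not say whether same-numbered arrays were paired. Deviations of same-numbered arrays correlated at -0.04 to -0.03, and those of other mock and 4mer arrays at -0.02 to 0.06. With 3 arrays in each group, these values cannot settle whether the arrays were paired. With the replicate block, which cannot alter a fold change in this balanced design, *PUB23* had an adjusted p of 0.206 at its log2 fold change of 0.68. Its standard error was 0.12 and its unadjusted p from limma 6.8e-04, against 0.13 and 8.9e-04 without the block.

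The median of the other U-box genes was -0.0630 with the filter on mean level, which leaves out the dim ones, 0 with a floor of 0.25 and 0.12 with an offset of 0.25, and ran from -0.0762 (without mock replicate 2) to 0.44 when 1 array was left out. The median of the genes around the ligases was 0.36 with that filter and ran from 0.10 to 0.43 (without mock replicate 3). Among the pairs, *PUB22* minus *PUB25* ran from -0.55 to 0.0243 over arrays left out, above 0 only without mock replicate 1. *PUB23* minus *PUB25* was 0.0783 with an offset of 0.25 and ran from -0.15 to 0.0631, above 0 without mock replicate 1 or 2 or without 4mer replicate 1 or 3. The cause was not tested. The other 4 pairs kept their sign in all alternatives run, of which no scaling, the floor of 0.25 and the replicate block cannot alter a pair. For *PUB23* minus *PUB24* and *PUB24* minus *PUB25*, whose groups were separate, leaving out an array cannot turn the sign.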

Other observations

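The genes next to the 4 ligase genes on the chromosome were looked up in the order of the TAIR10.1 gene table, 2 protein-coding genes on each side, a choice made after the ligase values were seen. Of these 16 neighbours, 10 were named among the probe sets, and 0 passed the test in limma, while 3 were lower at an unadjusted p under 0.05 (6.86% of all probe sets). By their log2 fold changes 6 were higher and 4 lower, and without mock replicate 1, 3 were higher. In 4 of them the groups did not overlap, each time lower with the 4mer (12.5% of all probe sets are separate in that direction). Of the 4 named neighbours of *PUB25*, 3 were among them, while *PUB25* itself was higher. The next gene, AT3G19390, was at 5.04, 4.41 and 3.78 in mock replicates 1, 2 and 3 and at 3.16, 3.47 and 3.05 in the 4mer replicates. Its log2 fold change was -0.44 (adjusted p = 0.234 from limma), and -0.34 without mock replicate 1. AT3G19370 and AT3G19360, on the other side, had log2 fold changes of -0.45 and -0.48 (adjusted p = 0.415 and 0.426), and -0.29 and -0.65 without mock replicate 1. AT3G19400, the remaining one, had 0.12. The named neighbours of *PUB23*, AT2G35910 and AT2G35920, had log2 fold changes of 0.13 and 0.04 (0.23 and -0.01 without mock replicate 1). Those of *PUB24*, AT3G11830 and AT3G11850, had 0.17 and 0.14 (0.03 and -0.16 without that array). In all of these the groups overlapped. AT3G52460, next to *PUB22*, had -0.54 (adjusted p = 0.559 from limma), and AT3G52470 had 0.02. Without mock replicate 1 they had -0.45 and -0.10.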
